A study of Mus musculus with 30 samples.

Results

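The 7 genes described here write, keep or remove methyl groups on cytosine in DNA: the methyltransferases Dnmt1, Dnmt3a and Dnmt3b, their helpers Dnmt3l and Uhrf1, and the TET dioxygenases Tet1 and Tet2. They were chosen by name, and their members on the array are the probe sets annotated to exactly 1 of these symbols. The 7 genes are among 18193 genes with such a probe set, and they hold 19 of the 45037 probe sets that are not controls. Of the 19, 18 passed the filter on low signals and were tested. The exception was 1 of the 4 Tet1 probe sets, 1419897_at, which lay at the lowest recorded value on 15 of 24 gradient arrays.

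The study set embryoid bodies (EB) against embryonic stem cells (ESC), both from the mouse cell source labelled R-1. EB are aggregates in which stem cells begin to differentiate. They were grown without leukaemia inhibitory factor (LIF) and taken at day 5, and ESC were kept undifferentiated in medium with LIF. All cultures of both states received cycloheximide, a drug that halts ribosomes on mRNA, at 150 ug/ml for 15 min, and no allele or transgene is named for either state. From 3 EB cultures and 3 ESC cultures, total RNA of unfractionated lysate and the RNA of 4 gradient pools were each hybridised to 1 mouse whole-genome oligonucleotide array, 30 arrays in all. A sucrose gradient sorts mRNAs by how many ribosomes they carry. The 12 fractions of each gradient were joined into pools 1 to 4. The labels do not say at which end of the gradient pool 1 lies, so the pools are given by number only. All samples come from 1 cell source, and in such bulk samples fewer cells of a type and less RNA per cell cannot be told apart.

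Dnmt3a and Dnmt3b place new methyl marks on unmethylated CpG sites, and Dnmt3l, which has no catalytic activity of its own, binds both and stimulates them. Dnmt1 copies existing marks onto the new strand after DNA replication, and Uhrf1 brings it to half-methylated sites. Tet1 and Tet2 oxidise methylated cytosine, the first step of active demethylation. Mouse stem cells express all of these genes, and the embryo gains methylation genome-wide when the pluripotent epiblast prepares for differentiation.

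Dnmt1 and Uhrf1 act as a pair, and their promoters are shown because they shared a match that few promoters hold. RefSeq lists 14 start sites for the 7 genes in its GRCm38.p6 table, each given as a window of 300 bases, most of it upstream of the start. The 4 E2F-type octamers TTTCCCGC, TTTGGCGC, TTTCGCGC and TTTGCCGC were searched on both strands. They occurred in 2.26% of all 32851 windows, and among the 14 in 1 window of Dnmt1 and 1 of Uhrf1. Capitals mark those matches. The Dnmt1 window lies at chr9:20952574-20952873 on the minus strand, and its first match starts 219 bases before the RNA start. The Uhrf1 window lies at chr17:56304063-56304362 on the plus strand, with the match 185 bases before the start.
Dnmt1: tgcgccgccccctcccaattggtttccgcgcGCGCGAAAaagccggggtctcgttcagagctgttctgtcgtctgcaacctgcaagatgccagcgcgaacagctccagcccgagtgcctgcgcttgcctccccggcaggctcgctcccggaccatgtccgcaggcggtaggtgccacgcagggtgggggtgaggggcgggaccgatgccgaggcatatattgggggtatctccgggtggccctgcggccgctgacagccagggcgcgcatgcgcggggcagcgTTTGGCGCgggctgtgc
Uhrf1: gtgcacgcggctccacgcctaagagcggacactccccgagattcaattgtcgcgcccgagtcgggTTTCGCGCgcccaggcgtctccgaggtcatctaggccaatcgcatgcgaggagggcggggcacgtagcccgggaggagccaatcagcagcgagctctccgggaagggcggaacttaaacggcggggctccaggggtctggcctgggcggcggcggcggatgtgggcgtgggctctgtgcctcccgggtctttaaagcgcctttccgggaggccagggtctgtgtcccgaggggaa
Both windows hold 33 CpG sites. Of 5 other motifs searched, CCAAT was found in 4 of the 14 windows, of Dnmt1 and Uhrf1, and in 37.4% of all windows. GGGCGG was found in 11 of the 14, at least 1 window of each gene, and in 35.7% of all windows. CACGTG was found in 2 of the 14, of Dnmt3a and Dnmt3l, and in 7.15% of all. The palindrome bound by NRF1 was found in 2 of the 14, both of Dnmt1, and in 0.971% of all, and TATAAA in 0 of the 14 and 13.6% of all. The motifs to print were picked after the matches were seen, and a match describes the letters only.

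Levels are log2 of the deposited signal plus 32, quantile normalised over the 30 arrays, so that a value ranks a gene among all genes of its array. This relative level was needed because the deposited arrays differ in overall signal. On the deposited scale the median of all 27022 tested probe sets was 0.86 higher in EB than ESC in total RNA and 0.73 higher in pool 4. A relative difference is therefore a difference from that common shift, and differences below are relative unless the deposited scale is named. The mean linear signal of the arrays spanned 72.4 to 577.8. By contrast, the mean log2 signal of 27 Bacillus spike-in control probe sets spanned only 8.67 to 9.13. Deposited levels were thus close to level for the spike-in RNAs, and whether the common shift is scaling or RNA amount was not tested. Between 18.3% and 59.1% of probe sets on a pool array stood at its lowest value. The ratio of 3′ to 5′ probe signal of Actb, a measure of RNA integrity and labelling, was lower in EB in every fraction. In pool 4 its log2 value was 0.74 ± 0.28 in EB and 2.30 ± 1.13 in ESC, and in total RNA 2.26 ± 0.22 in EB and 3.10 ± 0.29 in ESC (SD, n = 3 each). It moves with the state in each comparison below, and its part in them was not tested.

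Marker genes matched the labels in part. Beside the marker counts, 6.09% of all tested probe sets were called higher and 4.83% lower in EB total RNA. In total RNA, 1 of 7 pluripotency markers was higher in EB (Nanog, 0.53 ± 0.12, SE) and 1 was lower (Klf4, -1.74 ± 0.12). Their summed linear level was 18969 to 19247 in EB and 20326 to 20737 in ESC. Of 7 tested endoderm markers 4 were higher in EB and none lower, with a sum of all 8 of 400.1 to 429.1 in EB and 118.9 to 183.8 in ESC. For fibroblast and feeder cells, 6 of 8 markers fell below the filter, Col1a1, Col3a1 and Dcn among them. None of 2 tested was called in total RNA, and the sum was 137.3 to 158.0 in EB and 170.1 to 250.2 in ESC. Neural markers were lower in EB for 2 of 4 and higher for none, and 1 of 3 primitive streak and mesoderm markers was higher. Of 4 primed epiblast markers, 2 were higher and 2 lower in EB. The 2 lower ones, Fgf5 and Pou3f1, differed by -0.78 and -0.93, but by 0.21 and 0.09 on the deposited scale, where neither passed. Of the 2 lower neural markers, Nes turned to 0.25 there while Sox1 stayed lower, at -0.66, as did Klf4, at -0.51. The part of these cell type shifts in the results was not tested.

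The de novo enzymes Dnmt3a and Dnmt3b and their cofactor Dnmt3l were higher in EB in pool 4, on the relative and on the deposited scale. Dnmt1 and Tet2 were lower in EB in pools 1 to 3 and Uhrf1 in pools 1 and 2, each at 1 or more probe sets, relative to all genes; on the deposited scale no member passed as lower, and the pool 3 differences turned positive. The test was limma on each probe set, adjusted over all 27022 (Benjamini-Hochberg, threshold 0.05). In pool 4, 6 of 18 member probe sets were higher in EB and 1 lower. Of all tested probe sets 23.7% passed there, 13.7% of all as higher. In total RNA, 3 were higher and 1 lower, against 6.09% and 4.83% of all. In pool 1, 1 was higher and 3 lower (3.79% and 3.27% of all), and in pool 2, 1 was higher and 4 lower (2.47% and 2.73%). In pool 3, 1 was higher and 4 lower (8.7% and 7.48%). The median difference of the 18 was 0.28 in pool 4, where that of all tested probe sets was 0.08, and -0.16 in pool 2, where that of all was 0.01. Pool arrays of the same replicate number shared their lowest value across both states. With the number as a block, none of the 4 pool 1 calls passed (adjusted p = 0.0544 to 0.103), and 3 of the 5 pool 2 calls did. Probe sets of 1 gene read the same RNA, so these counts are not counts of independent genes. Deposited differences gave other counts, since all 18 were positive in total RNA, pool 3 and pool 4. They put 17 of 18 members higher in total RNA and 15 in pool 4, where 73.3% and 69.3% of all probe sets were higher.

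**Figure D1:**
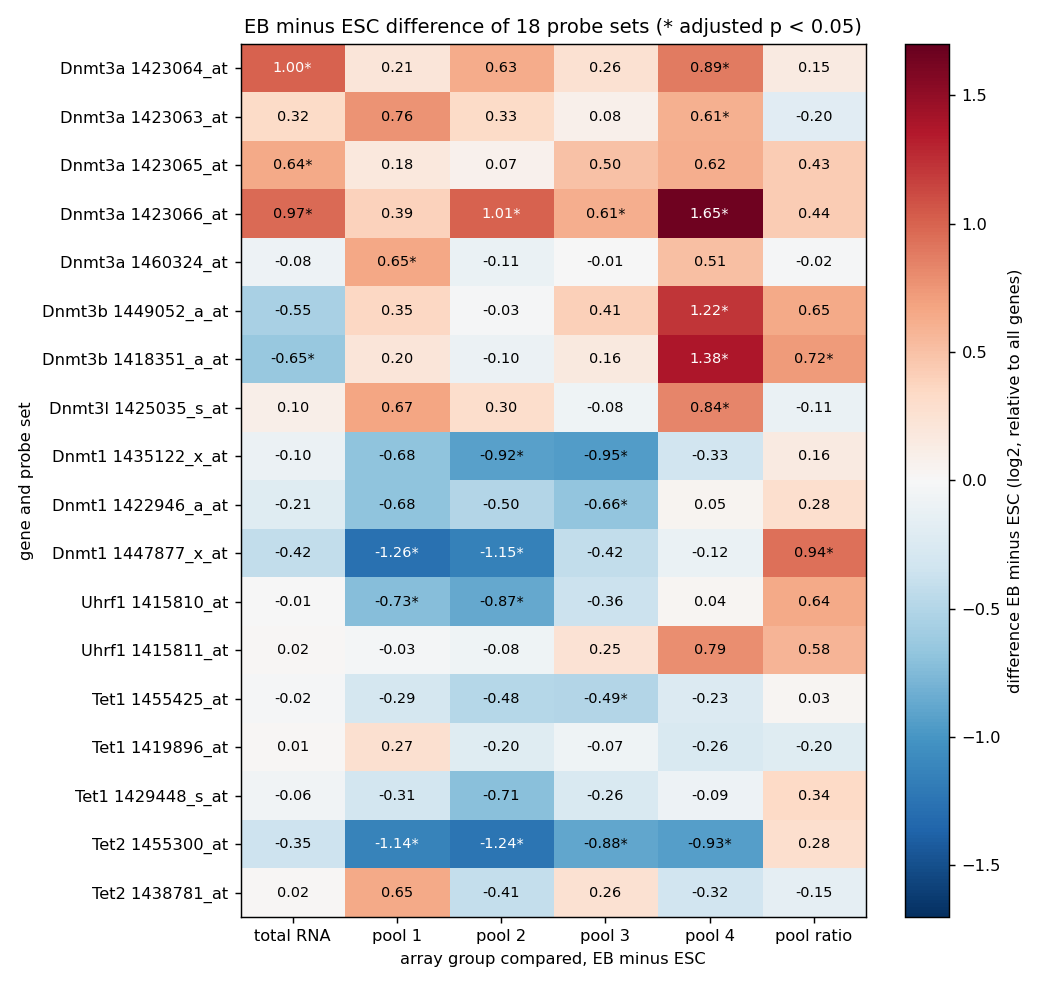
EB minus ESC difference (log2, relative to all genes) of the 18 tested probe sets, by gene, in total RNA, in each of pools 1 to 4 and in the pool ratio, which is the mean of pools 3 and 4 minus the mean of pools 1 and 2. Red is higher in EB and blue lower, and a star marks an adjusted p under 0.05. Dnmt3a, Dnmt3b and Dnmt3l are red in pool 4, and at least 1 probe set each of Dnmt1, Uhrf1 and Tet2 is blue and starred in pools 1 and 2; on the deposited scale the pool 3 and pool 4 values of Dnmt1, Tet1 and Tet2 shown in blue turn positive.

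Dnmt3b, a de novo methyltransferase, differed in opposite directions in total RNA and in pool 4 relative to all genes, while on the deposited scale it was higher in EB in both. Its probe set with the highest level, 1449052_a_at, read 9.54, 9.83 and 9.25 in the total RNA of EB and 10.27, 10.06 and 9.95 in that of ESC. Every EB culture lay below every ESC culture there, but the difference of -0.55 ± 0.17 (SE) did not pass the test (adjusted p = 0.0703). In pool 4 the same probe set read 10.98, 11.37 and 11.32 in EB and 9.75, 10.16 and 10.10 in ESC. All 3 EB cultures lay above all 3 ESC cultures, and the difference of 1.22 ± 0.16 passed (adjusted p = 0.00258). The second probe set, 1418351_a_at, read 7.66, 7.61 and 7.55 in EB total RNA and 8.35, 8.11 and 8.32 in ESC total RNA. That fall of -0.65 ± 0.12 passed the test (adjusted p = 0.0136). It did not pass without EB culture 1, 2 or 3 (adjusted p = 0.0514 to 0.0568). In pool 4 this probe set read 9.49, 9.14 and 9.53 in EB and 8.40, 8.02 and 7.61 in ESC, a difference of 1.38 ± 0.21 (adjusted p = 0.00455). The total RNA fall holds only relative to all genes: on the deposited scale Dnmt3b was higher in EB, by 0.65 ± 0.18 and 0.61 ± 0.16 for the 2 probe sets.

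Whether pool 4 and total RNA differed in their response was tested directly, a comparison added after the values were seen. The quantity was pool 4 minus total RNA in EB, less the same in ESC, from 1 limma fit that takes the 12 arrays as independent. For 1449052_a_at, pool 4 lay 1.68 above total RNA in EB and -0.09 from it in ESC, so the states differed by 1.77 ± 0.24 (adjusted p = 0.00323). For 1418351_a_at the 2 values were 1.78 in EB and -0.25 in ESC, and the difference was 2.03 ± 0.25 (adjusted p = 0.00214). On the deposited scale the differences were 1.72 ± 0.26 and 2.03 ± 0.34, both called (adjusted p = 0.0116 and 0.0184), where 0.333% of all probe sets were called, so the direction did not turn with the scale. With pool 4 minus total RNA taken first within each culture, joined by replicate number, and 3 EB set against 3 ESC differences, both were also called (2.03 ± 0.24 and 1.77 ± 0.25, adjusted p = 0.0234 for 1418351_a_at and 0.0311 for 1449052_a_at). Both remained called in 6 of 6 fits that left out 1 culture, with 1.56 to 1.90 for 1449052_a_at and 1.80 to 2.18 for 1418351_a_at. Among the 18 member probe sets 2 were higher in this comparison and 0 lower, against 1.97% and 2.57% of all tested, and these 2 are those of Dnmt3b. At an unadjusted p under 0.05 in either direction there were 6 of 18, where 5500 of all 27022 were. The next member, Dnmt3l, had 0.74 ± 0.22 and did not pass (adjusted p = 0.0731).

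**Figure D2:**
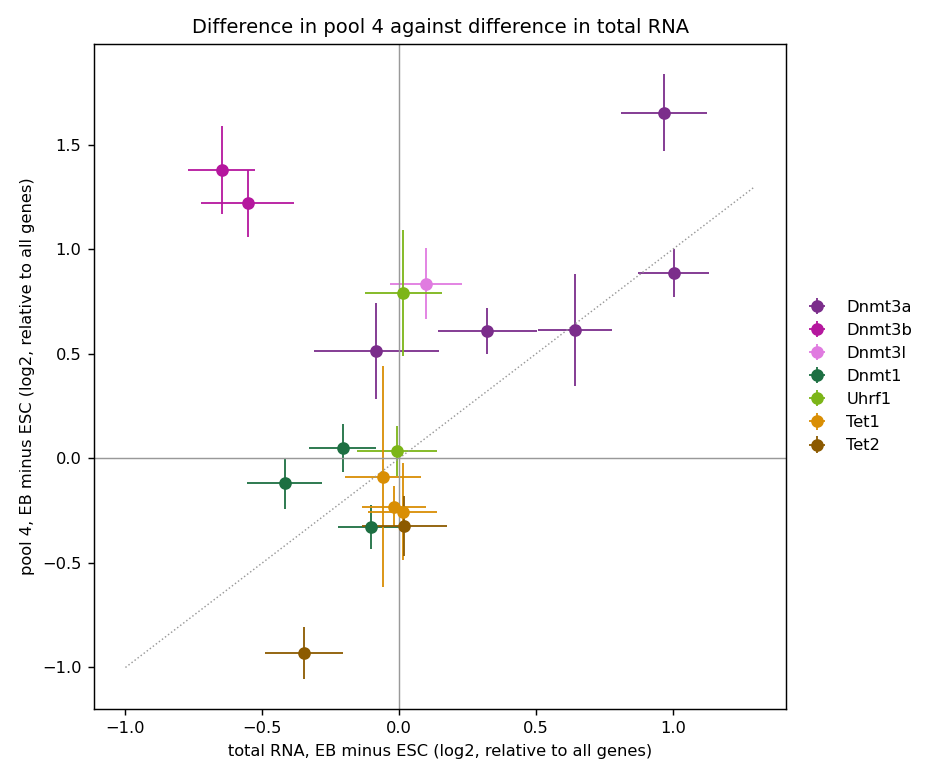
EB minus ESC difference in pool 4 (vertical) against that in total RNA (horizontal), both log2 relative to all genes, for the 18 tested probe sets coloured by gene. Points are fitted differences, bars are their standard errors, and the dotted line marks equal differences. The 2 Dnmt3b probe sets stand furthest above the dotted line, at -0.55 and 1.22 and at -0.65 and 1.38. Probe sets of Dnmt3a, Dnmt1 and Uhrf1 also lie at the upper left, closer to the line. On the deposited scale those of Dnmt3b stay above the line but their total RNA differences are positive.

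Dnmt3a, the other de novo methyltransferase, was higher in EB in both total RNA and pool 4. Its probe set 1423064_at, the highest of 5, read 8.97, 9.02 and 9.23 in EB total RNA and 8.16, 7.93 and 8.12 in ESC total RNA. The groups did not overlap, and the difference was 1.00 ± 0.13 (adjusted p = 0.00302) and 2.25 ± 0.16 on the deposited scale. In pool 4 it read 9.37, 9.43 and 9.45 in EB and 8.35, 8.67 and 8.57 in ESC, again with no overlap. That difference was 0.89 ± 0.11 (adjusted p = 0.00253). The rise in pool 4 minus that in total RNA was -0.12 ± 0.18, which did not pass (adjusted p = 0.767). The largest rise among all members was that of 1423066_at in pool 4, with 8.70, 8.32 and 8.41 in EB and 7.08, 6.92 and 6.46 in ESC. It came to 1.65 ± 0.18 (adjusted p = 0.00156), beside 0.97 ± 0.16 in total RNA (adjusted p = 0.00759).

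The 5 Dnmt3a probe sets did not all respond alike. In total RNA 3 were higher in EB, 0 lower, and the differences ran from -0.08 to 1.00. The call of 1423065_at, 0.64 ± 0.13, was lost without EB culture 1, 2 or 3 (adjusted p = 0.0548 to 0.0783). In pool 4 all 5 differences were positive, from 0.51 to 1.65, and 3 were called. Among the 3 was 1423063_at, at 0.61 (adjusted p = 0.00837). Each of those 3 calls held in 6 of 6 fits without 1 culture. In pools 2 and 3 only 1423066_at was called, with 1.01 ± 0.23 and 0.61 ± 0.16 (adjusted p = 0.0346 and 0.0275). The pool 2 call was lost without EB culture 1 or 2 or ESC culture 2 or 3 (adjusted p = 0.0964 to 0.125). The pool 3 call was lost without any EB culture or without ESC culture 2 or 3 (adjusted p = 0.0673 to 0.101). The dimmest, 1460324_at, stood at the floor on 6 of 24 pool arrays, and its pool 1 difference of 0.65 ± 0.15 (adjusted p = 0.0465) was lost without any 1 of the 6 cultures (adjusted p = 0.0679 to 0.132). All 3 of its ESC values in pool 1 were at the floor.

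Dnmt3l, the cofactor of both de novo enzymes, was read by 1 probe set, 1425035_s_at. In total RNA it read 9.35, 9.07 and 9.39 in EB and 9.15, 9.12 and 9.25 in ESC. These ranges overlapped, with a difference of 0.10 ± 0.13 (adjusted p = 0.684). In pool 4 it read 10.28, 10.58 and 10.58 in EB and 9.36, 9.62 and 9.93 in ESC. The 3 EB cultures were all above the 3 ESC cultures there, by 0.84 ± 0.17 (adjusted p = 0.0123), and by 2.07 ± 0.14 on the deposited scale. The call was lost without EB culture 2 or 3 (adjusted p = 0.0534 to 0.0582). In pool 1 the groups also did not overlap, at 8.50, 8.61 and 8.87 in EB and 7.86, 8.06 and 8.04 in ESC, but the difference of 0.67 ± 0.16 did not pass (adjusted p = 0.054).

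**Figure D3:**
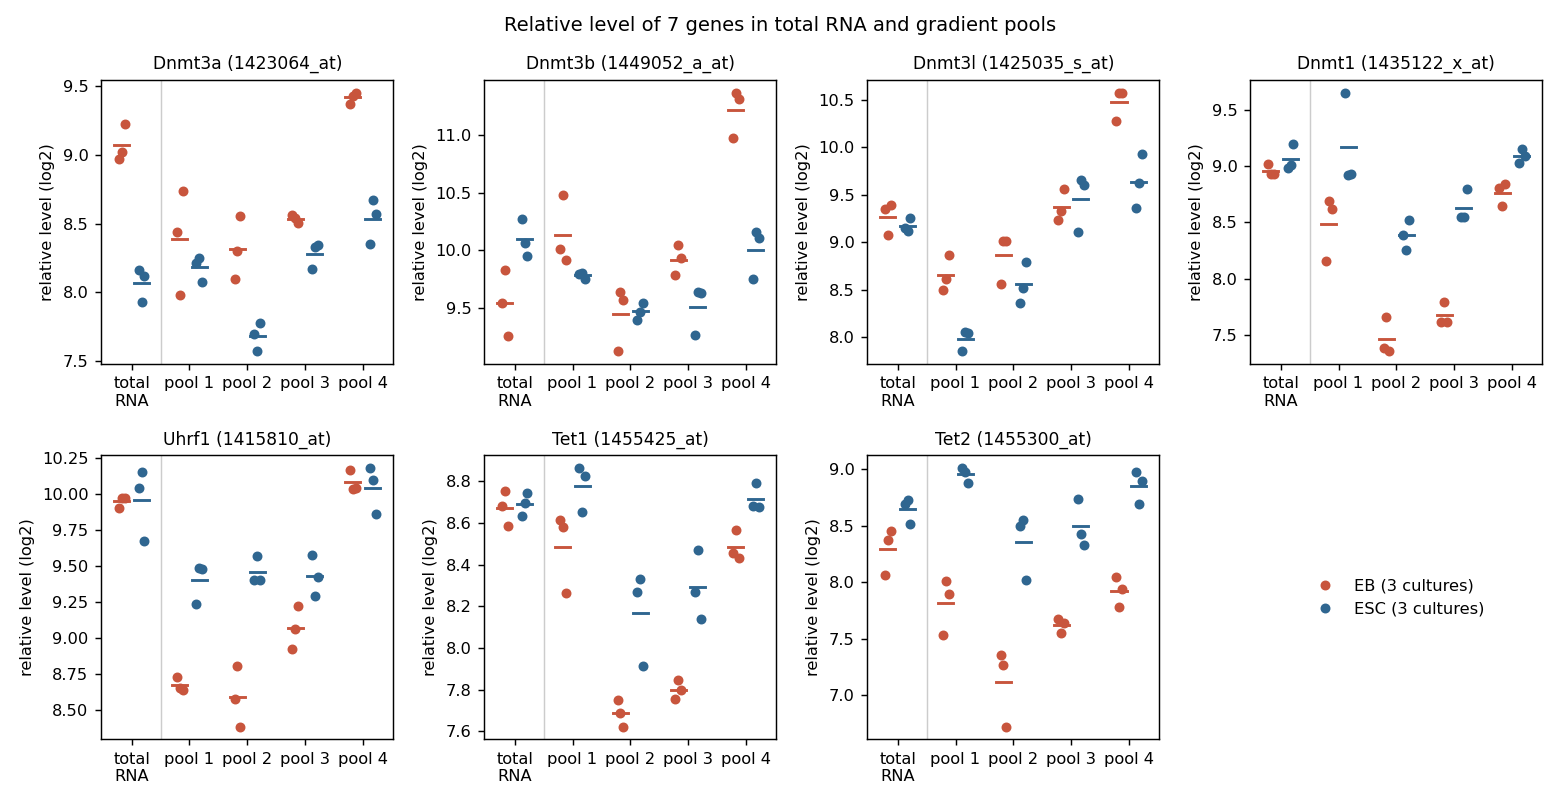
Relative level (log2) of each of the 7 genes, by its highest probe set, in every fraction. Each point is 1 culture, bars are means, and EB stand left of ESC, 3 cultures each; each panel has its own axis, so levels of different genes cannot be set against each other. Dnmt3a, Dnmt3b, Dnmt3l and Uhrf1 are highest in EB pool 4, and Dnmt1, Dnmt3b, Uhrf1, Tet1 and Tet2 lowest in EB pool 2; on the deposited scale Dnmt3a and Uhrf1 are highest in EB total RNA, and none of the 5 is lowest in EB pool 2.

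Dnmt1, the maintenance methyltransferase, differed little between the states in total RNA and was lower in EB in pools 2 and 3 relative to all genes, with the sign turned in pool 3 on the deposited scale. Its highest probe set, 1435122_x_at, read 9.02, 8.93 and 8.93 in EB total RNA and 8.98, 9.01 and 9.20 in ESC total RNA, a difference of -0.10 ± 0.12 (adjusted p = 0.633). In pool 3 it read 7.61, 7.79 and 7.62 in EB and 8.55, 8.54 and 8.79 in ESC. The groups lay well apart, by -0.95 ± 0.13 (adjusted p = 0.00191), and the call held in 6 of 6 fits without 1 culture. It was lost on the deposited scale, where the difference was 0.30 ± 0.40 with the opposite sign. In pool 2 it read 7.38, 7.66 and 7.36 in EB and 8.39, 8.25 and 8.52 in ESC, a difference of -0.92 ± 0.18 (adjusted p = 0.0228). Only the fit without EB culture 3 kept that call, and the other 5 gave an adjusted p of 0.0538 to 0.0957. In pool 4 the 3 EB values, 8.80, 8.64 and 8.84, were below the 3 ESC values, 9.03, 9.15 and 9.09, by -0.33 ± 0.10, which did not pass (adjusted p = 0.0576).

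The other 2 Dnmt1 probe sets placed the fall in different pools. For 1422946_a_at it passed in pool 3, at -0.66 ± 0.14 (adjusted p = 0.0139). That call was lost without EB culture 2 or 3 (adjusted p = 0.0595 to 0.0667), and the deposited difference was 0.62 ± 0.41. For 1447877_x_at it passed in pools 1 and 2, at -1.26 ± 0.22 and -1.15 ± 0.26 (adjusted p = 0.021 and 0.0366). The pool 1 values were 6.51, 6.77 and 6.88 in EB and 8.29, 8.04 and 7.61 in ESC. The pool 1 call was lost without EB culture 1 or 2 or ESC culture 1 or 2 (adjusted p = 0.0655 to 0.078), and the pool 2 call in each fit but that without EB culture 3 (adjusted p = 0.0579 to 0.133). The suffixes _a and _x mark probe sets that may read several transcripts or cross-hybridise.

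Uhrf1, which recruits Dnmt1, showed the same direction at its highest probe set, 1415810_at. In total RNA it read 9.90, 9.97 and 9.97 in EB and 10.04, 10.15 and 9.67 in ESC, with a difference of -0.01 ± 0.15 (adjusted p = 0.982). In pool 1 it read 8.73, 8.65 and 8.63 in EB and 9.24, 9.49 and 9.48 in ESC. All EB values lay below all ESC values, by -0.73 ± 0.15 (adjusted p = 0.0342). In pool 2 the values were 8.57, 8.80 and 8.38 in EB and 9.41, 9.57 and 9.40 in ESC, a difference of -0.87 ± 0.19 (adjusted p = 0.0288). The pool 1 call was lost in each fit that left out 1 culture (adjusted p = 0.065 to 0.116), and the pool 2 call in each but that without EB culture 3 (adjusted p = 0.0585 to 0.121). On the deposited scale both kept their sign, -0.71 ± 0.42 and -0.60 ± 0.41, and neither passed. The second probe set, 1415811_at, differed by -0.03 ± 0.28 in pool 1 and -0.08 ± 0.17 in pool 2, so the fall was seen by 1 of 2 probe sets. In pool 4 this second probe set differed by 0.79, which did not pass.

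Tet2 was lower in EB in all 4 pools relative to all genes, at 1 of its 2 probe sets, and on the deposited scale in pools 1 and 2 only. For 1455300_at the total RNA values were 8.06, 8.38 and 8.45 in EB and 8.70, 8.72 and 8.52 in ESC. The groups did not overlap, but the difference of -0.35 ± 0.14 did not pass (adjusted p = 0.156). In pool 1 it read 7.54, 8.01 and 7.90 in EB and 9.01, 8.98 and 8.87 in ESC, a difference of -1.14 ± 0.17 (adjusted p = 0.0154). In pool 2 it read 7.36, 7.27 and 6.73 in EB and 8.49, 8.55 and 8.02 in ESC, a difference of -1.24 ± 0.23 (adjusted p = 0.018). The pool 1 call was lost without ESC culture 1, 2 or 3 (adjusted p = 0.0582 to 0.0672), and the pool 2 call without culture 1 or 2 of either state (adjusted p = 0.0545 to 0.0901). In pool 3 the values were 7.68, 7.55 and 7.64 in EB and 8.74, 8.43 and 8.33 in ESC, a difference of -0.88 ± 0.14 (adjusted p = 0.00363). In pool 4 they were 8.05, 7.78 and 7.94 in EB and 8.97, 8.69 and 8.90 in ESC, a difference of -0.93 ± 0.12 (adjusted p = 0.00275). The calls in pools 3 and 4 held in 6 of 6 fits without 1 culture. On the deposited scale pools 1 and 2 stayed negative, at -1.04 ± 0.43 and -0.85 ± 0.41, while pools 3 and 4 turned positive, at 0.38 ± 0.42 and 0.40 ± 0.20, and none of the 4 passed.

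The second Tet2 probe set, 1438781_at, had both signs. In pool 1 it read 7.81, 7.84 and 8.46 in EB and 7.30, 7.76 and 7.11 in ESC, so that the 3 EB cultures were higher, by 0.65 ± 0.25 (adjusted p = 0.177). In pool 2 it read 5.98, 6.21 and 5.79 in EB and 6.48, 6.45 and 6.29 in ESC. The 3 EB cultures were lower there, by -0.41 ± 0.19, which did not pass (adjusted p = 0.24), and by 0.02 with the opposite sign on the deposited scale. In pool 4 the difference was -0.32 ± 0.14 (adjusted p = 0.148), and 0.95 on the deposited scale. None of its 5 comparisons of total RNA and single pools passed. The 2 probe sets of this gene disagree by their sign in pool 1, in pool 3 and in total RNA. For 1438781_at the difference was 0.26 in pool 3 and 0.02 in total RNA.

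Tet1, a TET enzyme well expressed in mouse embryonic stem cells, passed the test between the states in pool 3 only, at 1 of 3 tested probe sets. Its highest probe set, 1455425_at, read 8.68, 8.75 and 8.59 in EB total RNA and 8.63, 8.70 and 8.75 in ESC total RNA, a difference of -0.02 ± 0.12 (adjusted p = 0.945). In pool 3 it read 7.75, 7.84 and 7.80 in EB and 8.27, 8.47 and 8.14 in ESC. The groups did not overlap, and the difference of -0.49 ± 0.13 passed (adjusted p = 0.0307). That call was lost in each fit without 1 culture except that without ESC culture 3 (adjusted p = 0.0545 to 0.0932), and the deposited difference was 0.80 ± 0.40. The 2 other tested Tet1 probe sets were called in no comparison of total RNA or a single pool. They were 1429448_s_at and the dimmer 1419896_at, which stood at the floor on 3 of 24 pool arrays. The values of 1429448_s_at in pool 4 spread widely, at 9.32, 7.76 and 8.60 in EB and 9.59, 8.66 and 7.70 in ESC, with a difference of -0.09 ± 0.53.

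The pool ratio of a culture, the mean of pools 3 and 4 minus the mean of pools 1 and 2, compares a gene's relative level between these pools. Quantile normalisation gives all arrays the same distribution, so the ratio does not give the share of a gene's transcripts in each pool. Within EB it was above 0 for 13 of 18 member probe sets by the test, and below 0 for none, where 20.0% and 14.4% of all probe sets were. Within ESC it was above 0 for 6 and below for none, where 25.0% of all probe sets differed from 0 in either direction. The median ratio of the 18 was 0.75 in EB, where that of all was 0.04, and 0.36 in ESC, where that of all was -0.03. On the deposited scale it was 1.63 in EB, where that of all was 0.42, and 0.11 in ESC, where that of all was -0.15. Dnmt3l had a high ratio in both states, 1.16 ± 0.05 in EB and 1.28 ± 0.13 in ESC (SD, n = 3 each), with adjusted p = 2.24e-05 in EB and 4.6e-05 in ESC. For Dnmt3b 1418351_a_at the ratio was 0.88, 0.74 and 0.72 in EB and 0.19, 0.07 and -0.08 in ESC. In EB this ratio was above 0 by the test (adjusted p = 0.000378) and in ESC it was not (adjusted p = 0.761). Tet1 1455425_at stood near 0 in both states, at 0.06 ± 0.13 in EB and 0.03 ± 0.11 in ESC. Another Tet1 probe set, 1429448_s_at, was above 0 by the test in EB, at 0.76 (adjusted p = 0.0229). That call was lost without EB culture 1 or 3 (adjusted p = 0.0811 to 0.183). Its ratios were 1.17, 0.34 and 0.77 in EB and 1.25, 0.04 and -0.01 in ESC.

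Between the states, 2 of 18 ratios were higher in EB and 0 lower, against 1.54% and 2.46% of all probe sets. They were Dnmt3b 1418351_a_at, by 0.72 ± 0.17 (adjusted p = 0.0393), and Dnmt1 1447877_x_at, by 0.94 ± 0.23 (adjusted p = 0.0478). The ratios of this Dnmt1 probe set were 0.66, 0.40 and 1.15 in EB and -0.19, -0.51 and 0.10 in ESC. Both calls were lost in every fit without 1 culture, with an adjusted p of 0.0741 to 0.126 for Dnmt3b and 0.0604 to 0.16 for Dnmt1. The other Dnmt1 probe sets overlapped between the states. The highest, 1435122_x_at, had 0.44, 0.04 and 0.24 in EB and -0.23, 0.26 and 0.22 in ESC, a difference of 0.16. The ratio of 1422946_a_at was above 0 by the test within ESC too, at 0.79 (adjusted p = 0.00109). The second Dnmt3b probe set, 1449052_a_at, had 0.81, 0.65 and 0.89 in EB and -0.09, 0.27 and 0.22 in ESC. Its groups did not overlap, but the difference of 0.65 ± 0.18 did not pass (adjusted p = 0.0613). The 2 Uhrf1 probe sets also had ratios without overlap, with differences of 0.64 ± 0.18 and 0.58 ± 0.19 that did not pass (adjusted p = 0.0709 and 0.108). In all, 6 of 18 ratios were higher in EB with no overlap and 0 lower, where 15.5% and 11.8% of all probe sets were. On the deposited scale 17 of 18 ratios were called higher in EB, where 54.9% of all probe sets were.

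**Figure D4:**
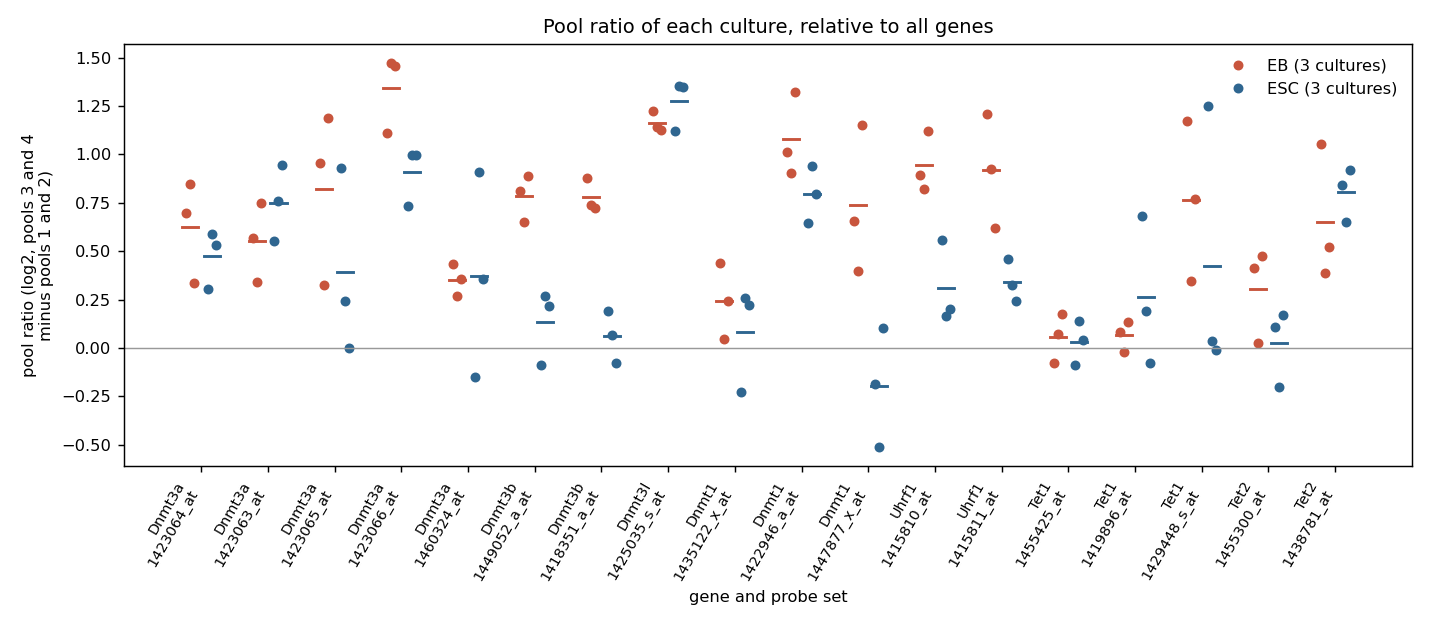
Pool ratio (log2, mean of pools 3 and 4 minus mean of pools 1 and 2, relative to all genes) of each culture for the 18 tested probe sets. Points are cultures, bars means, EB left of ESC, 3 cultures each. The line at 0 marks equal relative levels in both pairs of pools, not equal amounts of transcript. Both Dnmt3b probe sets lie at 0.65 or above in EB and at 0.27 or below in ESC, while Dnmt3l is above 1 in all 6 cultures; these heights depend on the scale, and on the deposited one most ratios shift up in EB.

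The 10 groups (5 fractions in each state) were ordered by relative level. Dnmt3a, Dnmt3b and Dnmt3l were each highest in EB pool 4, at 9.42 ± 0.04, 11.22 ± 0.21 and 10.48 ± 0.17 (SD, n = 3 each), and in each gene that group lay above the next without overlap. Dnmt1, Tet1 and Tet2 were each highest in ESC pool 1, at 9.17 ± 0.42, 8.78 ± 0.11 and 8.95 ± 0.07, where their ranges overlapped those of ESC pool 4, the next in order. All 3 were lowest in EB pool 2, at 7.47 ± 0.17, 7.69 ± 0.06 and 7.12 ± 0.34. Uhrf1 was highest in EB pool 4, at 10.08 ± 0.07, overlapping ESC pool 4, and lowest in EB pool 2, at 8.59 ± 0.21. Dnmt3b was also lowest in EB pool 2, at 9.44 ± 0.28, but its 9 groups below EB pool 4 each overlapped their neighbour in the order. Dnmt3a was lowest in ESC pool 2, at 7.68 ± 0.10, and Dnmt3l in ESC pool 1, at 7.99 ± 0.11. The order depends on the scale: by mean deposited log2 signal Dnmt1, Uhrf1, Tet1 and Tet2 were highest in EB total RNA, at 9.79, 10.75, 9.51 and 9.13, and lowest in EB pool 1, at 7.24, 7.44, 7.24 and 6.51. Dnmt3b and Dnmt3l were highest in EB pool 4 there too, and Dnmt3a had 9.90 in EB pool 4 and 9.91 in EB total RNA.

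Across the 10 group means, Dnmt1 and Tet1 followed each other most closely of all member pairs, with Pearson r = 0.98. Dnmt1 and Tet2 had r = 0.88, Tet1 and Tet2 0.81, and Dnmt1 and Uhrf1 0.75, while Dnmt3a and Dnmt3l had 0.72. Dnmt1 and Dnmt3l had 0.04. Among 13250 genes, those nearest in pattern to Dnmt3b were Kif16b, Kif18a and Atxn10 (r = 0.93, 0.92 and 0.92), and those nearest to Dnmt3a were Cmtr1, Usp22 and Prc1 (r = 0.98, 0.95 and 0.95). Dnmt3l was nearest to Atp5b, Cct8 and Eefsec, each at 0.99. Dnmt1 was nearest to Crebbp, Zfp518b and Tet1 (0.99, 0.98 and 0.98), and Tet1 to Dnmt1, Zfp287 and Rapgef6 (0.98, 0.96 and 0.96). Uhrf1 was nearest to Copa, Erc1 and Clasp1 (0.97, 0.97 and 0.96), and Tet2 to Zfp445, Iqgap2 and Vcpip1 (0.98, 0.98 and 0.97). These are descriptions over 10 groups whose arrays share cultures and overall signal.

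Other genes of the pathway were read through their highest probe sets. Of 8 partners of maintenance methylation, 1 was higher in EB total RNA and 0 lower. It was Uhrf2, a relative of Uhrf1, by 1.04 ± 0.14 (adjusted p = 0.00368). In pool 4, 3 of the 8 were higher and 0 lower, and their median difference was 0.26, where that of all was 0.08. Among all 27022 tested probe sets, 3696 were called higher in pool 4 and 2706 lower. The pool 4 counts of each list below are to be read beside these. Of 7 tested readers of methylated DNA, 1 was lower in EB total RNA, Zbtb33 (Kaiso), by -0.51 ± 0.12 (adjusted p = 0.0326; 0.73 ± 0.16 on the deposited scale). In pool 4, 1 of 7 was lower, Mbd2, at -0.54, and 0 higher; on the deposited scale Mbd2 was called higher, at 0.47 (adjusted p = 0.0156). Of 8 tested genes of active demethylation and repair, 2 were higher in EB total RNA and 0 lower, the stress-response genes Gadd45g (1.32 ± 0.12, adjusted p = 0.00092) and Gadd45b (0.71 ± 0.14, adjusted p = 0.0166). Both also stood out in pool 4, at 1.14 ± 0.12 and 0.68 ± 0.15, and were the 2 called there.

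Of 10 genes that link methylation to histone marks, 0 were called in total RNA and 2 were lower in pool 4, Nsd1, at -0.60, and Setd2, at -0.39; on the deposited scale both were called higher there, at 0.72 and 0.91 (adjusted p = 0.00371 and 0.000777). Of 5 tested regulators of methylation in pluripotent cells, 2 were higher and 2 lower in EB total RNA. Dppa3, which shields methylation in the early embryo and interferes with Uhrf1, was higher by 1.24 ± 0.16 (adjusted p = 0.00298), and Prdm14, a repressor of Dnmt3b in stem cells, by 1.16 ± 0.13 (adjusted p = 0.00189). Lin28a, an RNA-binding protein of pluripotent cells, was lower by -0.83 ± 0.12 (adjusted p = 0.0043; 0.40 ± 0.15 on the deposited scale). Dppa3 was also higher in pool 4, by 1.78 ± 0.14 (adjusted p = 0.000576), as was Prdm14, by 1.06 ± 0.11 (adjusted p = 0.00122). Of 8 tested genes that supply methyl groups or TET cofactors, 1 was lower in EB total RNA, the isocitrate dehydrogenase Idh1, by -0.74 ± 0.16 (adjusted p = 0.0222; 0.49 ± 0.19 deposited). In pool 4, 3 of those 8 were higher and 1 lower, Shmt2, at -0.42, which was called higher on the deposited scale, at 0.93. The regulator Cxxc5 was likewise lower in pool 4, at -0.53, and called higher there on the deposited scale, at 0.82.

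Dnmt1 and Uhrf1 peak in S phase of the cell cycle, so S-phase genes were read beside them. Of 13 tested, 2 were higher in EB total RNA (Cdc6 by 0.58 ± 0.14 and Mcm7 by 0.44 ± 0.11, both replication licensing genes) and 1 was lower (the cyclin Ccne1, by -1.01 ± 0.14, but 0.23 higher on the deposited scale, where it did not pass). Their adjusted p-values were 0.0286, 0.0398 and 0.00425. In pool 4, 6 of the 13 were higher and 1 lower (Ccne1, at -0.79, but called higher on the deposited scale, at 0.59), with a median difference of 0.42, where that of all was 0.08. In pool 2, 0 of the 13 were higher and 2 lower, where 2.47% and 2.73% of all probe sets were. Their median there was -0.16, where that of all was 0.01. Any part of the cell cycle in the Dnmt1 and Uhrf1 differences was not tested. The genes named as lower in pool 4 were picked after their values were seen. No gene of these 7 lists passed the test of the pool ratio between the states, where 4.0% of all probe sets did.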

How the data were processed

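Total RNA and 4 sucrose gradient pools of 3 EB and 3 ESC cultures were read on 30 oligonucleotide arrays. The authors deposited 1 log2 signal per probe set and array. The submitters' processing notes name MAS5 and affy, with no version or role. How arrays were scaled is not given in the sources used here, though the spike-in controls differed little between arrays. Of 45101 probe sets 64 controls were left out, and genes were named from the platform annotation (34945 probe sets with 1 symbol, 932 with several, 9160 with none).

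The deposited log2 signal was made linear, 32 was added, log2 was taken and the 30 arrays were quantile normalised; probe sets among the lowest 40% by mean level were left out, and 27022 stayed. The moderated two-sided test of limma 3.58.1 (R 4.3.3) was run on each, adjusted by Benjamini-Hochberg over all 27022 with a threshold of 0.05 and no replicate block, and the fits were tested on simulated data. The deposited scale, other scalings, no offset, no filter, 1 probe set per gene, a block and leaving out each culture were the alternatives. The test of pool 4 against total RNA and its alternatives, per-culture differences among them, were added after the data were seen. The labels call the 3 samples of a group biological replicates.

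The members, the gene lists, the scaling and the tests were chosen with earlier results of these data known, among them that most genes shift together on the deposited scale. A gene is represented by its probe set with the highest mean. All member probe sets are described. Of each pathway list, up to 3 called genes with the largest difference are named, for total RNA and the pool ratio, and for each member the 3 genes with the highest correlation over the 10 group means. Markers named beside them, and the motifs printed, were picked after their values were seen. The number of arrays limits the precision. Promoter windows are RefSeq's, from the GRCm38.p6 table; all 7 genes matched.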

Additional observations from a re-analysis of the deposited data

Results flagged for a closer look

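The states differed in how the Dnmt3b response varied over fractions. Pool 4 minus total RNA was higher in EB than in ESC by 2.03 for 1418351_a_at and by 1.77 for 1449052_a_at, both past the test of that difference (adjusted p = 0.00214 and 0.00323, limma), a comparison added after the data were seen. The pool ratio was higher in EB by 0.72 for Dnmt3b 1418351_a_at and by 0.94 for Dnmt1 1447877_x_at, and neither call was kept when any 1 culture was left out. For Dnmt3b 1449052_a_at every EB culture was below every ESC culture in total RNA, at -0.55, and above in pool 1, at 0.35, and in pool 3, at 0.41; these differences between fractions were not tested. For Tet2 1438781_at the 3 EB cultures were higher in pool 1, at 0.65, and lower in pool 2, at -0.41, which was not tested either. With 3 cultures a group, no single culture could be tested for standing apart.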

How the results depend on the processing

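Of 48 member calls over the 9 comparisons, 42 kept their direction and 32 their call on the deposited scale. Quantile normalisation of the fitted arrays alone kept 46, trimmed mean scaling 47, median centring 40, no filter 42 and no offset 31, all 48 in the same direction. With 1 probe set per gene, 20 of 20 were kept. Leaving out 1 culture kept 26, 26 and 30 of 42 for EB and 24, 21 and 24 of 35 for ESC, with no change of direction. The labels do not say that a replicate number marks a shared batch, and same-numbered EB and ESC arrays did not all deviate together at r over 0.1 (pool 4 gave 0.342, 0.035 and -0.013, while pool 2 gave 0.147, 0.083 and 0.162), so the samples were not treated as paired, although same-numbered pool arrays share their lowest value. A replicate block kept 22 of 29 calls and gave 0 member calls in pool 1, 3 in pool 2 and 1 in the ratio.

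The number of members called was 4 in total RNA, against 17 on the deposited scale, 1 with 1 probe set per gene and 2 to 4 without 1 culture. In pool 1 it was 4, against 0 deposited, 2 with median centring, 1 with no offset and 0 to 2 without 1 culture. In pool 2 it was 5, against 1 deposited, 2 with median centring, 0 with no offset, 2 with no filter, 3 with 1 probe set per gene and 0 to 5 without 1 culture. In pool 3 it was 5, against 9, 2 with no offset, 3 with 1 probe set per gene and 2 to 5. In pool 4 it was 7, against 15, 11 with median centring and 6 to 8. For the ratio it was 2, against 17, 11 with median centring, 4 with trimmed mean scaling, 0 with no offset, 1 with no filter, 1 with 1 probe set per gene and 0 without any 1 culture. Within EB it was 13, against 4 with 1 probe set per gene and 11 to 13 without 1 culture, and within ESC 6, against 2 and 5 to 7. For pool 4 against total RNA it was 2, against 1 with 1 probe set per gene and 2 without any 1 culture. With 1 probe set per gene fewer probe sets are tested; for the others the cause was not tested.

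Positive differences among the 18 numbered, on the deposited scale, 18 in total RNA (8 relative), 11 in pool 1 (10), 9 in pool 2 (5), 18 in pool 3 (8), 18 in pool 4 (11) and 18 in the ratio (13), and within ESC 12 ratios were positive (17). Differences called on neither side also changed sign under other settings. The 23 that turned and were called on at least 1 side all did so on the deposited scale. In total RNA these deposited differences were 1.17 for Uhrf1 1415810_at, 0.61 and 0.65 for Dnmt3b 1418351_a_at and 1449052_a_at, 1.07, 1.16 and 0.81 for Dnmt1 1422946_a_at, 1435122_x_at and 1447877_x_at, 1.23 and 1.26 for Tet1 1429448_s_at and 1455425_at, and 0.95 for Tet2 1455300_at. In pool 3 they were 0.62 and 0.30 for Dnmt1 1422946_a_at and 1435122_x_at, 1.24 for Dnmt3l, 0.38 for Tet2 1455300_at and 0.80 for Tet1 1455425_at. In pool 4 they were 1.02 and 1.14 for Dnmt1 1435122_x_at and 1447877_x_at, 0.95 and 0.40 for Tet2 1438781_at and 1455300_at, and 1.10 for Tet1 1455425_at. For the ratio they were 0.86 and 0.73 for Dnmt3a 1423063_at and 1460324_at, 0.99 for Dnmt3l and 0.95 for Tet2 1438781_at. The cause was not tested.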
